A study of Mus musculus with 6 samples.

Results

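The genes of the unfolded protein response and of the integrated stress response were examined in sorted CD45- mammary tumor cells with and without RANK. The set comprised 38 genes chosen by name for their place in these pathways, not by a measured value, out of 22502 genes or unnamed transcripts tested. Earlier results of these data were known when the set was chosen. All 38 were on the arrays, all 38 passed the filter on dim probes, and each was read from a probe that both channels showed well above background on 6 of 6 arrays. By role they were 14 chaperones and folding enzymes of the endoplasmic reticulum (ER), 4 genes of ER-associated degradation, 3 ER stress sensors with the transcription factor Xbp1, 8 transcription factors and feedback genes of the integrated stress response, 5 enzymes of amino acid and one-carbon metabolism, and 3 amino acid transporters.

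The RNA came from orthotopic transplants of MMTV-PyMT late carcinomas, in which a mammary tumor virus promoter drives the polyomavirus middle T oncogene in mammary epithelium. Donor tumors were RANK+/+ or RANK-/- on the C57BL/6 background, the latter with a germline deletion of the receptor RANK, and tumor cells were placed in the mammary gland of syngeneic C57BL/6 females, which were 6 to 10 weeks old per the methods. Hosts carried RANK in both groups, so the deletion concerned the transplanted cells, and live cells without the leukocyte protein CD45 were sorted from the grown tumors. Each of 6 two-color arrays received 1 RNA of each genotype, which gave 3 pairs of RNAs with 2 technical replicate arrays, A and B, for each pair. The RANK-/- RNA was in Cy5 in pair 1 and in Cy3 in pairs 2 and 3, so a dye effect and a property of pair 1 cannot be told apart. Whether different tumors gave the 3 RNAs of a genotype is not in the labels, and p-values therefore measure only the spread between these 3 pairs.

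Values are log2 ratios of the channel labeled RANK-/- over the channel labeled RANK+/+, averaged over arrays A and B, and a ratio of 1 is a 2-fold difference. The deleted gene went against its label. Tnfrsf11a, which encodes RANK, had log2 ratios of 2.03, 1.15 and 1.76 in pairs 1, 2 and 3 (mean 1.65 ± 0.45, SD). Its limma p was 0.0013 unadjusted and 0.9995 adjusted, and its rank product proportion of false positives was 0.079. Whether its probe lies in the deleted part of the gene was not established here. Directions below therefore rest on the labels as they stand. All 8 luminal epithelial markers were detected in both channels of the 6 arrays. Ptprc, the leukocyte gene that encodes CD45, was well above background on 5 arrays for RANK-/- and on 4 for RANK+/+. In sorted cells measured in bulk, fewer cells of a type and less RNA per cell cannot be told apart.

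The unfolded protein response is the reaction of a cell to misfolded proteins in the ER. Its sensors, IRE1 (Ern1), ATF6 and PERK (Eif2ak3), lead to the active transcription factors XBP1, ATF6 and ATF4, which raise transcription of chaperones, of the degradation machinery and of amino acid supply genes. The integrated stress response shares ATF4 with it: PERK and other kinases phosphorylate the translation factor eIF2α, which lowers general protein synthesis and favors translation of ATF4. Secretory epithelium such as that of the mammary gland depends on these pathways for its protein load. RNA levels of the sensors do not report their activity, and splicing of Xbp1 was not measured by these arrays.

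Promoter sequences are shown because the transcription factors of these pathways act there. RefSeq (assembly GRCm38.p6) gave windows from 250 bases before to 50 bases after the start for 33 of the 38 members; the other 5 are Slc1a5, Slc7a5, Manf, Atf6 and Hyou1. The ER stress response element, searched on both strands as CCAAT and CCACG with 9 bases between them, was in the windows of 8 members (24.2% of 33), against 0.137% of 27025 genes with a window. The 8 were 7 chaperones or folding enzymes (Hspa5, Hsp90b1, Calr, Canx, Pdia6, Dnajc3 and Creld2) and the ubiquitin ligase gene Syvn1. The element was first described in promoters of such genes, so its presence is background and not a finding of these arrays. Stretches of Canx and Dnajc3, and of a second such element in the window of Hsp90b1, are not shown. In the following stretches of 60 bases, written 5′ to 3′ along the gene's strand, capitals mark the element on either strand.
Hspa5 (chr2:34772005-34772064, plus strand): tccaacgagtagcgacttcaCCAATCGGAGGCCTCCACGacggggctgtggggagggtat
Hsp90b1 (chr10:86705617-86705676, minus strand): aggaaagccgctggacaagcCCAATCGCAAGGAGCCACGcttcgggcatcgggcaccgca
Calr (chr8:84847054-84847113, minus strand): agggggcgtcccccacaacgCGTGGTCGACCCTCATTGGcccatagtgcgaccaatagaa
Pdia6 (chr12:17266471-17266530, plus strand): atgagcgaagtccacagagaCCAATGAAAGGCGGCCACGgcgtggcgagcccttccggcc
Creld2 (chr15:88819500-88819559, plus strand): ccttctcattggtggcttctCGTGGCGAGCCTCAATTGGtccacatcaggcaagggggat
Syvn1 (chr19:6046512-6046571, plus strand): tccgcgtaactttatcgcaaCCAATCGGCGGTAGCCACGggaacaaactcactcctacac
A shorter element, searched on both strands as ATTGG and CCACG with 1 base between them, holds the CCAAT of the first in reverse and the same CCACG. It was in the windows of 2 members (6.06%), Dnajb11 and Herpud1, and in those of 0.0444% of all genes. The stretch of Herpud1 is shown with this element in capitals.
Herpud1 (chr8:94386353-94386412, plus strand): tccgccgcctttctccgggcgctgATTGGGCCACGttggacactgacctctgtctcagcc
The element to which C/EBP and ATF factors bind, searched on both strands as TGATGNAA, was in the windows of 4 members (12.1%), Asns, Chac1, Trib3 and Herpud1, against 4.51% of all genes. Its letters are not part of the other elements. The stretches of Asns and Chac1 are shown with it in capitals.
Asns (chr6:7693210-7693269, minus strand): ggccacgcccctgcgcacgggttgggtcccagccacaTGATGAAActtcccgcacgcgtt
Chac1 (chr2:119351023-119351082, plus strand): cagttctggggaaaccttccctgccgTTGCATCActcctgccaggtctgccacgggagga
The letters TGACGTGG, searched on both strands, a binding site of XBP1 and ATF6 that ends in the CCACG of the other elements read on the opposite strand, were in 0 member windows and in 0.714% of all genes.

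No member passed a test of the genotypes over all genes. By limma, 0 of 38 members passed an adjusted p of 0.05 (adjusted p 0.9995 for each), and 0% of all genes did. By the rank product, the kind of test the study used, 0 members were called (smallest proportion of false positives 0.803), against 0.0978% of all genes. At an unadjusted limma p under 0.05 there were 2 members, the chaperone gene Sdf2l1 (p 0.0295) and the sensor gene Atf6 (p 0.0319), against 2.88% of all genes. The values below are accordingly descriptions of 3 pairs, and none of them passed a test against the spread between pairs.

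Of the 38 members, 10 had a positive ratio in every pair, as did 9.95% of all genes, and 1 had a negative ratio in every pair, as did 9.65% of all genes. The 10 were 8 chaperones and folding enzymes with Atf6 and Atf4, and the lower one was Shmt2. This count rests on the scaling of the arrays: with median centring in place of loess it was 3 as measured, and 7 relative to the median of all genes. Median centring moved that median to 0.13, -0.19 and -0.39 in pairs 1, 2 and 3, and values under it are given here relative to it. The other 27 members had both signs among the pairs. The channels were also set against each other as levels over the 3 pairs. In 7 members (Hspa5, Hsp90b1, Calr, Pdia3, Pdia6, Atf6 and Atf4) every normalized signal labeled RANK-/- was above every one labeled RANK+/+, as in 3.69% of all genes, and in 1 member, Shmt2, every one was below, as in 3.77%. With median centring, relative to all genes, this held for 1 member in each direction, Atf6 and Shmt2. The mean was above 0 for 30 of 38 members and for 51.0% of all genes, and with median centring for 13 members as measured and 27 relative to all genes. With median centring the share of all genes was not computed for the counts of sign, of overlap and of means above 0. Those counts therefore have no background beside them. The SD between pairs was at least as large as the mean for 27 of 38 members, and for 83.0% of all genes.

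Pairs differed in the stress genes far more than the technical replicates did. The median SD between pairs was 0.519 for the members and 0.329 for all genes, against a median technical SD of 0.04996 for the members. Across the 38 members, Pearson's r between the technical arrays was 0.994, 0.983 and 0.993 in pairs 1, 2 and 3. Between pairs, r was -0.47 (pairs 1 and 2), 0.15 (pairs 1 and 3) and -0.22 (pairs 2 and 3). Over all genes tested, r between pairs was -0.28, 0.18 and -0.079 in the same order, with the same signs. These are correlations across genes on shared arrays and are given without p. Pair 3 held the highest value of 23 members, pair 2 that of 8 and pair 1 that of 7. The median of the members was 0.11, 0.083 and 0.47 in pairs 1, 2 and 3, and with median centring, relative to all genes, 0.23, -0.06 and 0.18, so the sign of pair 2 turned.

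**Figure D1:**
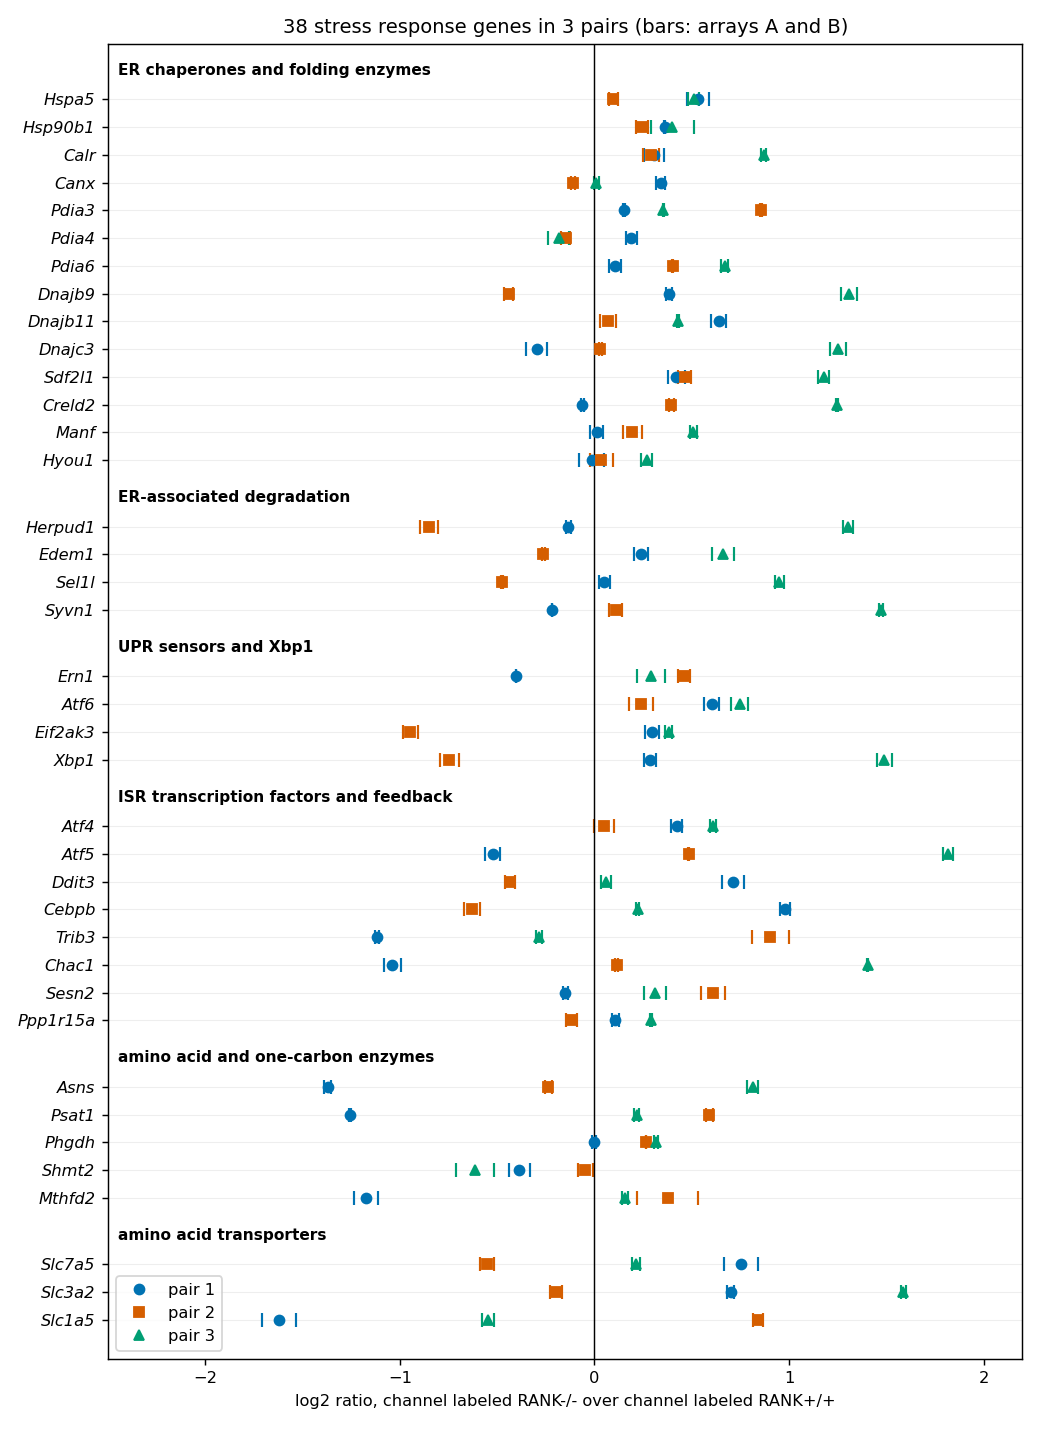
Log2 ratio (channel labeled RANK-/- over RANK+/+) of each of the 38 members, grouped by role. Large symbols are pairs 1 to 3 and vertical bars are the technical arrays A and B of each pair. Arrays A and B lie close together, while the 3 pairs of a gene lie apart, with pair 1 lowest for Asns, Psat1, Mthfd2 and Slc1a5 and pair 3 highest for all 4 genes of ER-associated degradation; ratios follow intensity loess.

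The chaperones and folding enzymes were the group most often on one side. Their median was 0.25, 0.15 and 0.51 in pairs 1, 2 and 3, and with median centring, relative to all genes, 0.36, 0.016 and 0.20. Of the 14 genes, 8 were higher in all 3 pairs, beside 9.95% of all genes. A mean above 0 was found for 13, beside 51.0% of all genes, and 0 passed limma. Relative to the median of all genes, 7 were higher in all 3 pairs with loess and 6 with median centring. The matching shares of all genes were not computed. Hspa5, which encodes the major ER chaperone BiP, had normalized log2 signals of 15.87, 15.5 and 15.57 in the channel labeled RANK-/- in pairs 1, 2 and 3, and of 15.34, 15.4 and 15.06 in the other. The log2 ratios were 0.53, 0.096 and 0.51 (mean 0.38 ± 0.25, SD, fold 1.30). The lowest signal labeled RANK-/- thus lay just above the highest of the other channel, but with median centring pairs 2 and 3 turned to -0.28 and -0.08 relative to all genes.

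Hsp90b1, the ER form of HSP90, had ratios of 0.36, 0.25 and 0.40 (mean 0.34 ± 0.08). It varied least of all members between pairs, but with median centring its pairs 2 and 3 were near 0 with a negative sign (-0.03 and -0.07). Calr, which encodes the lectin chaperone calreticulin, had ratios of 0.31, 0.29 and 0.87 (mean 0.49 ± 0.33) and kept its sign in all 3 pairs relative to all genes with median centring. Its partner calnexin (Canx) was at 0.34, -0.11 and 0.0099, so only pair 1 was clearly above 0. Pdia3, a disulfide isomerase that works with both lectins, was at 0.15, 0.85 and 0.35 (mean 0.45 ± 0.36), with pair 2 highest. Pdia6, another isomerase, was at 0.11, 0.40 and 0.67 (mean 0.39 ± 0.28), and its second probe was also above 0 in each pair.

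Sdf2l1 encodes an ER-resident chaperone cofactor. Its ratios were 0.42, 0.46 and 1.18 (mean 0.69 ± 0.43, SE 0.25, fold 1.61; limma adjusted p 0.9995), and it stayed above 0 in each pair under the alternatives that give a value per pair. Of these 11, the 2 other filters and the mean over probes leave a member with 1 probe at the same value, so 8 could alter it. Dnajb11, a co-chaperone of BiP, was at 0.64, 0.069 and 0.43 (mean 0.38 ± 0.29), and its pair 2 turned to -0.08 with median centring. Manf, a secreted ER stress protein, was at 0.011, 0.19 and 0.51 (mean 0.24 ± 0.25). Creld2, another secreted ER stress gene, was at -0.06, 0.39 and 1.25 (mean 0.53 ± 0.66), and its pair 1 turned to 0.055 with median centring. The remaining genes of this group, Pdia4, Dnajb9, Dnajc3 and Hyou1, had means from -0.05 to 0.42. The 8 members whose window holds the ER stress response element, named above, had medians of 0.21, 0.18 and 0.77. With median centring these were 0.33, -0.03 and 0.27, so pair 2 had no settled sign. Of the 8, 4 were higher in all 3 pairs with loess, beside 9.95% of all genes.

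Genes of ER-associated degradation differed by pair. Their median was -0.04, -0.37 and 1.13 in pairs 1, 2 and 3, and 0.058, -0.43 and 0.91 with median centring, so the sign of pair 1 turned. Herpud1, which recruits the degradation complex and whose promoter stretch is shown above, was at -0.14, -0.85 and 1.30 (mean 0.11 ± 1.10). Syvn1, the ubiquitin ligase HRD1, was at -0.22, 0.11 and 1.47 (mean 0.45 ± 0.90). Its adaptor Sel1l was at 0.051, -0.48 and 0.95, and the mannosidase-like gene Edem1 was at 0.24, -0.26 and 0.66. All 4 were highest in pair 3, 3 of the 4 were lowest in pair 2, and 0 had one sign in all 3 pairs.

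Among the sensors, Atf6 was on one side in every pair. Its normalized log2 signals were 8.47, 8.305 and 8.581 in the channel labeled RANK-/- and 7.869, 8.067 and 7.835 in the other. Its ratios were 0.60, 0.24 and 0.75 (mean 0.53 ± 0.26, SE 0.15, fold 1.44; limma adjusted p 0.9995), and they stayed above 0 under the 8 alternatives that could alter them. Ern1, which encodes the sensor IRE1 that splices Xbp1 mRNA, was at -0.40, 0.46 and 0.29 (mean 0.12 ± 0.46). Eif2ak3, which encodes the eIF2α kinase PERK, was at 0.29, -0.95 and 0.38 (mean -0.09 ± 0.74). Atf6 and Eif2ak3 shared the order of pairs 3 over 1 over 2, and Ern1 had pair 2 highest and pair 1 lowest.

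Xbp1, the transcription factor downstream of IRE1 and a regulator of secretory cells, spread over 2.24 log2 units between pairs. Its normalized log2 signals were 16.29, 15.83 and 16.8 in the channel labeled RANK-/- in pairs 1, 2 and 3, and 16, 16.57 and 15.31 in the other, so the channels overlapped. The ratios were 0.29, -0.75 and 1.49 (mean 0.34 ± 1.12), and the mean without pair 3 was -0.23. The order of its pairs, 3 over 1 over 2, was that of 12 members, among them Herpud1, Sel1l, Edem1 and Eif2ak3, and 11 members had the order 3 over 2 over 1. Each of the 3 signs of Xbp1 was kept under the 8 alternatives that could alter its values.

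The transcription factors and feedback genes of the integrated stress response showed no common side. Their median was -0.02, 0.083 and 0.30, and 0.089, -0.13 and -0.08 with median centring, so all 3 signs turned with the scaling. Atf4, the central factor of the response, was at 0.42, 0.051 and 0.61 (mean 0.36 ± 0.28) by its brightest probe. Its second probe gave -0.65, 0.84 and 0.93, which is the opposite sign in pair 1, and with median centring the brightest probe turned in pairs 2 and 3 (-0.36 and -0.07). Atf4 is translated under stress from an mRNA whose level need not move, and its protein was not measured.

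Ddit3, which encodes the proapoptotic factor CHOP, was at 0.71, -0.43 and 0.060 (mean 0.11 ± 0.58). Cebpb, a partner of both factors, was at 0.98, -0.63 and 0.22, in the same order of pairs. Atf5, another stress-translated factor, was at -0.52, 0.48 and 1.82 (mean 0.59 ± 1.17), with loess the highest value of any member in any pair, and its mean without pair 3 was -0.02. The ATF4 targets Trib3, a pseudokinase, and Chac1, which degrades glutathione, were both low in pair 1 (-1.12 and -1.04) but apart in pair 3 (-0.28 and 1.40). Sesn2 and Ppp1r15a, whose product returns eIF2α to its unphosphorylated form, had means of 0.26 ± 0.38 and 0.093 ± 0.20.

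Enzymes of amino acid and one-carbon metabolism were low in pair 1. All 5 were below 0 there, Phgdh only just, beside 48.0% of all genes. Their median was -1.17 in pair 1, while the medians of pairs 2 and 3 were 0.26 and 0.22. With median centring the values were -1.14, 0.089 and -0.05, so pair 3 turned. Asns, which makes asparagine and is a standard ATF4 target, had normalized log2 signals of 11.81, 12.28 and 13.16 in the channel labeled RANK-/- in pairs 1, 2 and 3, and of 13.18, 12.52 and 12.34 in the other. Its ratios were -1.37, -0.24 and 0.81 (mean -0.27 ± 1.09), and the channels overlapped, with the pairs in opposite order in each; the mean without pair 1 was 0.29. Psat1, of serine synthesis, was at -1.26, 0.59 and 0.22, and both of its probes gave this value in pair 1 (-1.27 by the other). Mthfd2, of mitochondrial folate metabolism, was at -1.17, 0.38 and 0.16. Phgdh, the first enzyme of serine synthesis, did not share the low value of pair 1 (-0.00317, 0.26 and 0.32). With median centring its pair 1 turned to 0.11.

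Shmt2, the mitochondrial serine hydroxymethyltransferase, was the 1 member below 0 in all 3 pairs. Its highest normalized log2 signal labeled RANK-/- was 10.91 and its lowest labeled RANK+/+ was 10.96, both in pair 2. The ratios were -0.39, -0.05 and -0.61 (mean -0.35 ± 0.29, SE 0.17; limma adjusted p 0.9995), and each stayed below 0 under the 8 alternatives that could alter it. Pair 2 was close to 0, so the size of the difference rests on pairs 1 and 3.

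The 3 amino acid transporter genes did not all vary together. By the brightest probes Slc3a2 and Slc7a5 had the same sign in each pair, and Slc1a5 had the opposite sign. Slc3a2, the heavy chain shared by several transporters, was at 0.70, -0.20 and 1.59 (mean 0.70 ± 0.89), and its mean without pair 3 was 0.25. Its light chain partner Slc7a5 was at 0.75, -0.55 and 0.21 by the brightest probe and at 0.15, 0.30 and 0.010 by the other, opposite in pair 2. Slc1a5, a glutamine transporter, had ratios of -1.62, 0.84 and -0.55 (mean -0.44 ± 1.24), and its second probe gave -1.61, 0.70 and -0.48. Without pair 1 the mean of Slc1a5 was 0.15.

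With loess, differences of at least 2-fold lay in pairs 1 and 3. In pair 1, 6 members were at least 2-fold lower (2.84% of all genes were) and 0 were at least 2-fold higher (3.66%). In pair 2 there were 0 in either direction (2.45% of all genes were higher and 2.37% lower). In pair 3, 10 members were at least 2-fold higher (4.91%) and 0 lower (3.01%). With median centring, relative to all genes, 5 members were at least 2-fold lower in pair 1 (2.65% of all genes) and 1, Cebpb, higher (4.50%), 2 members, Xbp1 and Eif2ak3, were lower in pair 2 (3.14%), and 8 were higher in pair 3 (4.15%), so the 0 counts of pairs 1 and 2 rest on the scaling. The 6 of pair 1, named after their values were seen, were Asns, Psat1, Mthfd2, Slc1a5, Trib3 and Chac1, at -1.62 to -1.04 there. Other genes of amino acid supply and of the ATF4 arm were above 0 in the same pair, among them Slc7a5 (0.75), Slc3a2 (0.70) and Ddit3 (0.71). The 6 were above 0 in 5 of 6 cases in pair 2 and in 4 of 6 in pair 3, and over the 11 alternatives their pair 1 values ranged from -1.72 to -0.83. The 10 of pair 3, chosen in the same way, were Xbp1, Herpud1, Syvn1, Dnajb9, Dnajc3, Sdf2l1, Creld2, Atf5, Chac1 and Slc3a2, at 1.18 to 1.82. Over the alternatives these ranged from 0.43 to 1.85, so all stayed above 0 but not all at 2-fold.

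**Figure D2:**
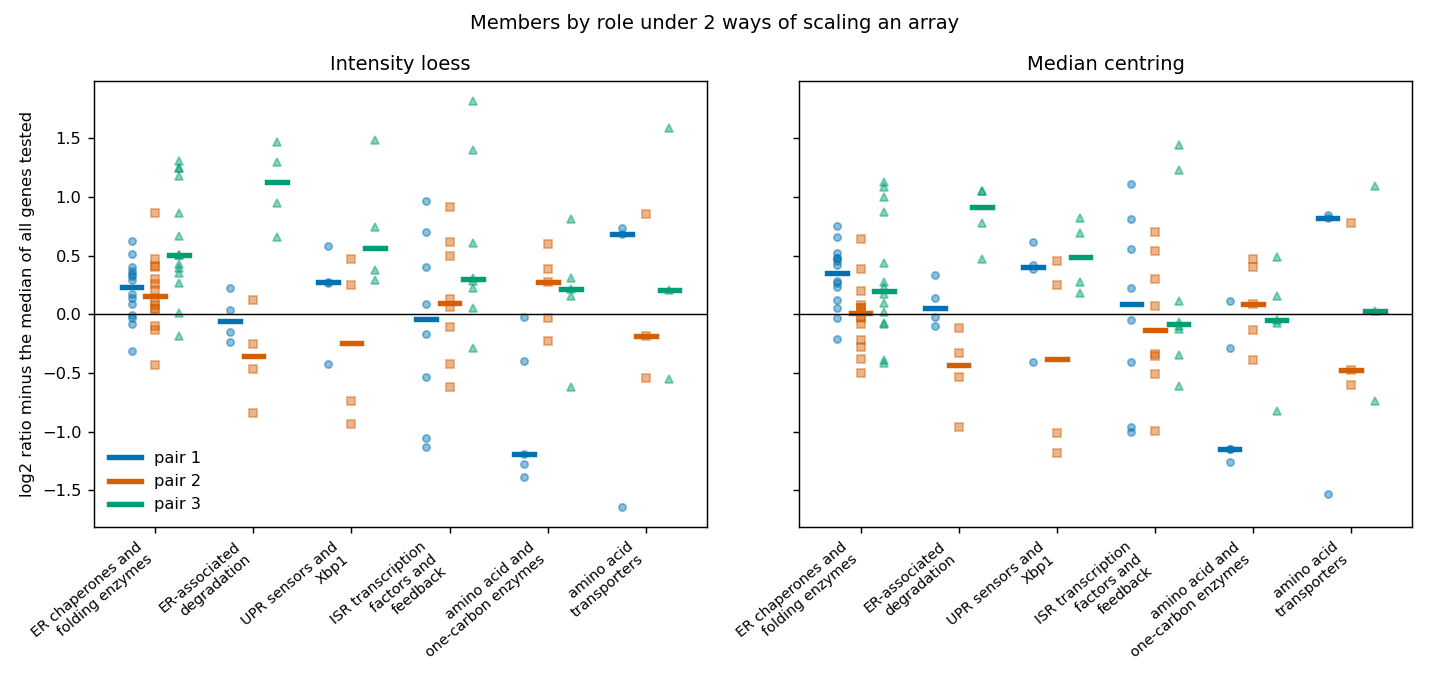
Log2 ratio minus the median of all genes tested, by role, with intensity loess (left) and median centring (right). Each symbol is 1 member in 1 pair and each bar is the median of the role in that pair. The enzymes of amino acid and one-carbon metabolism have medians of -1.19 and -1.14 in pair 1 and the genes of ER-associated degradation 1.13 and 0.91 in pair 3, while the medians of the integrated stress response factors change sign between panels.

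The choice of probe mattered for some members. Of the 38, 7 had 2 probes that passed the filter, which gave 21 pairs of values. The 2 probes had the same sign in 15 and opposite signs in 6: Dnajb9 in pairs 1 and 2, Atf4 in pair 1, Slc7a5 in pair 2, Psat1 in pair 3 and Phgdh in pair 1, the last with both probes near 0. Slc1a5, Phgdh, Psat1 and Pdia6 had gaps between probes of at most 0.338. The second probe of Dnajb11 was well above background on 0 arrays and was left out.

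**Figure D3:**
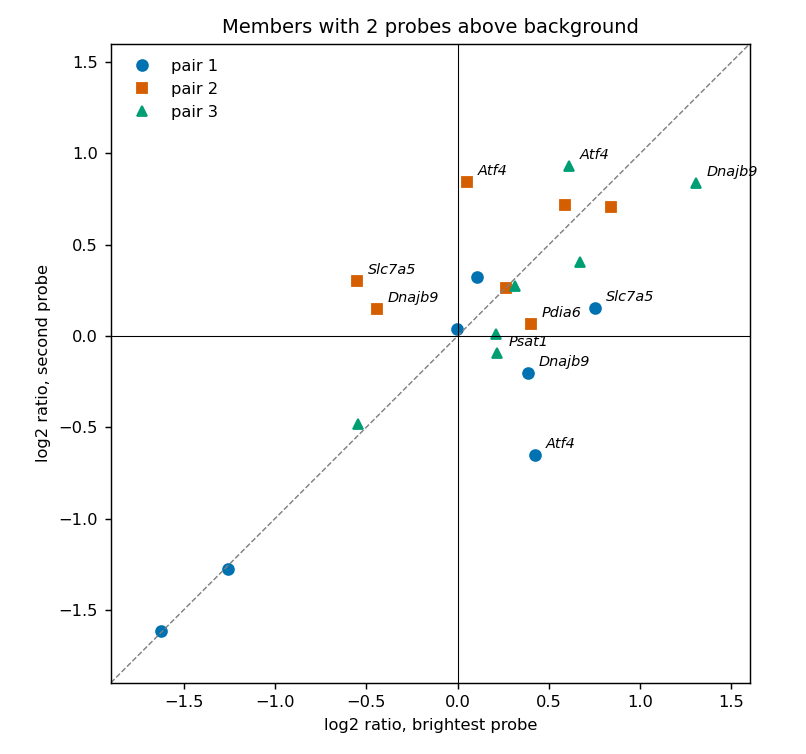
Log2 ratio of the second probe (vertical) against that of the brightest probe (horizontal) for the 7 members with 2 probes above background, 1 symbol for each pair, with the line of equality dashed. Names mark values whose probes differ by more than 0.3. Atf4 in pair 1 (0.42 and -0.65) and Slc7a5 in pair 2 (-0.55 and 0.30) lie in quadrants of opposite sign.

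Other genes of the pathways were read from lists of 73 genes, of which 72 were on the arrays and 71 were tested. By limma 0 passed. There were 10 higher and 6 lower in all 3 pairs, beside the 9.95% and 9.65% of all genes, and 2 of the 71 (Uggt1 and Eif2ak2) were at an unadjusted p under 0.05, beside 2.88% of all genes. The 24 other genes of ER folding and degradation had medians of 0.26, -0.007 and 0.50, with 7 genes higher in all 3 pairs and 1 lower. In that list Derl3, of the degradation channel family, was at 1.35, -0.81 and 3.01. Sil1, the nucleotide exchange factor of BiP, was at 0.38, 0.30 and 1.54, and Edem2 was at 0.12, 1.10 and 0.40.

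The 28 other ATF4 targets tested had medians of -0.40, 0.19 and 0.045, and 21 of the 28 were below 0 in pair 1, beside 48.0% of all genes. With median centring, relative to all genes, 20 of the 28 were below 0 there, with a median of -0.31. Gdf15, a secreted stress cytokine, was at -2.33, -0.08 and -0.68. Ddit4, an inhibitor of mTORC1 signaling, was at 0.087, -1.46 and -1.34, and the tRNA synthetase gene Sars was at 1.03, -0.14 and 0.84. Slc7a11 was below background, and Pycr1 had no probe matched by accession. The 19 other regulators of the unfolded protein response and of eIF2α had medians of -0.16, 0.11 and 0.22. Among them Eif2ak2, the kinase PKR that responds to double-stranded RNA, was at 0.20, 0.78 and 0.79 (unadjusted limma p 0.0322).

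Lists that mark other cells or states also differed between pairs, and their part in the values above was not tested. Milk protein genes had medians of -0.86, -1.99 and 2.59 in pairs 1, 2 and 3, and their summed normalized signal ranged from 14993 to 95715 in the channel labeled RANK-/- and from 3625 to 42730 in the other. Luminal epithelial markers had medians of 0.36, -0.61 and 0.73. Both were highest in pair 3 and lowest in pair 2, which is the order of Xbp1 and of the median of the degradation genes. The endothelial markers given below had this order too, and few orders of 3 pairs are possible. Proliferation genes had medians of -0.81, 0.70 and -1.01, with 10 of 10 below 0 in pairs 1 and 3 and 10 of 10 above 0 in pair 2, and summed signals of 25105 to 52610 and 31215 to 50234. Fibroblast markers, with 8 of 8 tested, had medians of 0.078, 0.85 and 1.97, and summed signals of 144131 to 233397 and 51118 to 146865. All 8 were at least 2-fold higher in pair 3, as were 4.91% of all genes. The order of these medians, 3 over 2 over 1, was that of 11 members, among them Syvn1, Dnajc3, Sdf2l1, Creld2, Atf5 and Chac1. The leukocyte and plasma cell medians given below had it too.

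Leukocyte markers had medians of -0.58, 0.20 and 0.26 over 9 tested genes, lowest in pair 1, and their summed signal was 7984 to 10794 and 7522 to 10146. Of 6 plasma cell markers, 4 were on the arrays and 3 were tested, with medians of -0.63, -0.21 and 0.081, and Tnfrsf17 was above background on 0 arrays. Endothelial markers had medians of 0.10, -0.18 and 0.53, and immediate-early genes, which respond within minutes to handling of cells, 0.46, -0.33 and 0.18. For stress genes of other compartments the medians lay closer together: cytosolic heat shock genes had medians of 0.34, 0.25 and 0.057, and mitochondrial chaperones and proteases -0.09, 0.071 and 0.024. Single heat shock genes spread more, with a median SD of 0.43, beside 0.29 for the ER chaperones. Of 11 tested, 3 were higher and 0 lower in all 3 pairs (9.95% and 9.65% of all genes). At an unadjusted limma p under 0.05 there were 2, both higher, beside 2.88% of all genes. No gene of these lists passed limma. The rank product called 1 of them, the milk protein gene Wap, at 3.75, 0.71 and 3.83, beside the 0.0978% of all genes.

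**Figure D4:**
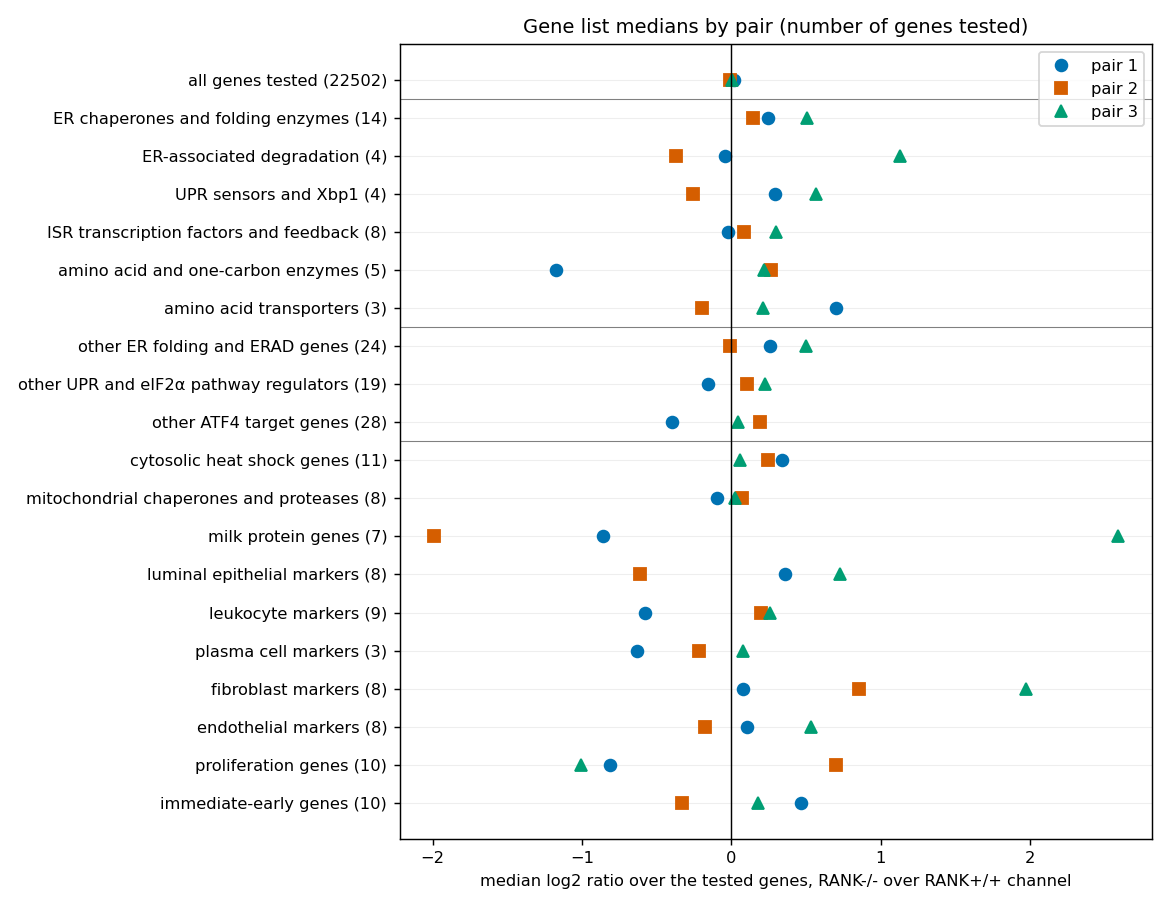
Median log2 ratio (channel labeled RANK-/- over RANK+/+) over the tested genes of each list, 1 symbol for each of the 3 pairs, with the number of genes in parentheses. From top to bottom the blocks are all genes, the members by role, other pathway genes, and lists of other cells and states; pairs spread most for milk protein genes (-1.99 to 2.59), and ratios follow intensity loess.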

How the data were processed

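RNA of sorted CD45- cells was hybridized to 6 two-color Agilent mouse arrays. The authors scanned them with Feature Extraction 10.7.3.1. The deposited tables give median spot and background intensity in both channels, not normalized. The series table, also deposited, gives normalized log2 ratios of the authors. Set against the scanner ratios it ran as RANK-/- over RANK+/+, and it was used as an alternative only.

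Groups, pairs and dyes came from the labels. In limma 3.58.1 (R 4.3.3; data.table version 1.17.8), intensities were corrected by normexp (offset 50) and normalized by intensity loess and Aquantile. Spots of a probe and arrays A and B were averaged, giving n = 3 pairs. The methods describe dye swaps, but the labels give both arrays of a pair the same dyes. A probe was kept if, in one genotype's channel, it was well above background in at least 2 pairs, on both arrays of each (30231 of 55681 probes, 54.3%), and the brightest probe stood for a gene. Symbols came from RefSeq (GRCm38.p6) by accession, which matched 28026 probes. Probe positions are not given, because the array grid uses another build.

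Genes were tested with lmFit and eBayes (two-sided, Benjamini-Hochberg, threshold 0.05) and with a rank product (200 seeded draws). With 3 pairs an exact sign-flip test cannot give a p below 0.25. The fits were tested on simulated data whose noise was set below the spread between the real pairs. That run therefore does not show which changes the tests could detect in these data. Promoter motifs were matched as exact letters. The number of pairs, 3, limits the precision of each mean. Named in full were members with a mean of at least 0.5 in size or 1 sign in all pairs, the sensors, Xbp1, Hspa5, Atf4, Ddit3 and Asns, and up to 3 genes of each other pathway list, by largest mean. Pair values of other members were chosen after seeing them. The members and lists were chosen with earlier results of these data known. Alternatives covered the background correction, the normalization, the filter, the probe rule, each technical array, the pair as a block, a dye term and each pair left out.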

Additional observations from a re-analysis of the deposited data

How the results depend on the processing

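Among the members limma called 0 and the rank product 0 under every alternative in which each was run. With the pair as a random block limma called 13 genes, none of them a member (smallest adjusted p of a member 0.448), and unadjusted calls among the members ranged from 0 to 6. The random block fit took the 6 arrays singly, with a correlation within pairs of 0.962. Without a replicate block, with the channels as separate samples, limma again called 0 members and 0 genes (827 genes and 4 members at an unadjusted p under 0.05). The pairing is that of a shared array: deviations of channels with the same pair number correlated at -0.0344, -0.218 and -0.041. No adjusted call changed when the replicate block was left out. At an unadjusted p under 0.05, the fit without it held Hsp90b1, Calr, Pdia6 and Atf6, and no longer Sdf2l1. A block for slide or scan date was not run, since all arrays share 1 slide and 1 date.

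Median centring had the widest effect, and the cause was not tested. As measured, without the all-gene median taken off (chosen after seeing the data for the report), members higher in all 3 pairs fell from 10 to 3 and the median of the member means from 0.20 to -0.039. Medians in pairs 1, 2 and 3 became 0.36, -0.24 and -0.22 for all members, 0.49, -0.17 and -0.19 for chaperones and 0.22, -0.32 and -0.48 for the integrated stress response factors. They became 0.095 for the sensors and Xbp1 in pair 3, and -0.66 and -0.36 for the transporters in pairs 2 and 3. Means turned negative for 17 members: Hspa5 (-0.049), Hsp90b1 (-0.023), Canx (-0.26), Pdia6 (-0.019), Manf (-0.012), Hyou1 (-0.039), Herpud1 (-0.13), Sel1l (-0.021), Ern1 (-0.039), Xbp1 (-0.13), Atf4 (-0.11), Ddit3 (-0.092), Cebpb (-0.22), Chac1 (-0.0370), Ppp1r15a (-0.22), Phgdh (-0.097) and Slc7a5 (-0.056).

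Other alternatives turned means near 0. Canx was -0.00434 with Agilent's processed signals and -0.022 in the series table, where Ppp1r15a was -0.0349. With a dye term Pdia4 was 0.012, Ern1 -0.015, Eif2ak3 0.0063 and Chac1 -0.14. The same term moved the mean of 14 members by over 1.5 times without turning it, among them Asns from -0.27 to -0.54, Psat1 from -0.15 to -0.43, Mthfd2 from -0.21 to -0.45, Trib3 from -0.17 to -0.40 and Slc1a5 from -0.44 to -0.74, and left 0 members at an unadjusted p under 0.05 in place of 2. With the mean over probes the median of the integrated stress response factors in pair 2 was 0.28.

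Leaving out 1 pair gave a median of the member means of 0.024 to 0.39 and turned the mean of 22 members, while 16 kept their sign; sign counts and pair medians cannot be given with a pair left out. The means of those 22 ranged as follows: Canx -0.0504 to 0.18, Pdia4 -0.17 to 0.0207, Dnajb9 -0.0289 to 0.85, Dnajc3 -0.13 to 0.64, Herpud1 -0.49 to 0.58, Edem1 -0.0112 to 0.45, Sel1l -0.21 to 0.50, Syvn1 -0.0548 to 0.79, Ern1 -0.0569 to 0.37, Eif2ak3 -0.33 to 0.34, Xbp1 -0.23 to 0.89, Atf5 -0.0193 to 1.15, Ddit3 -0.19 to 0.39, Cebpb -0.20 to 0.60, Trib3 -0.70 to 0.31, Chac1 -0.46 to 0.76, Ppp1r15a -0.0047 to 0.20, Asns -0.81 to 0.29, Psat1 -0.52 to 0.40, Mthfd2 -0.51 to 0.27, Slc7a5 -0.17 to 0.48, Slc1a5 -1.09 to 0.15.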
